A study of Mus musculus with 6 samples.

Results

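The amyloid precursor family and the enzymes that cut it were examined through 9 genes: App, Aplp1, Aplp2, Bace1, Adam10, Psen2, Ncstn, Aph1a and Ide. They were taken by gene symbol from a table of linear transcripts, keeping annotated isoforms and assembled isoforms that share exons with the gene, and isoform counts were summed per gene. This gave 9 of 54787 genes and 73 of 155855 isoforms, 63 of them annotated and 10 assembled, and 8 of the 73 had no reads in any library. A further 3 isoforms lying inside introns of App and Psen2 were left out. From a second table came 30 of 17369 circular RNAs (circRNAs), closed RNA loops recognised by reads across the back-splice junction.

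The libraries were made from prefrontal cortex of male C57BL/6 mice that carried no named genetic change and were 30 weeks old. The PS_high group received 50 mg/kg body weight of polystyrene nanoparticles (PS NPs), small plastic spheres, by oral gavage once a day for 6 months, beginning at 5 weeks of age, and the control group (0 mg/kg) received water. There were 3 libraries per group, and the labels do not say whether each library came from 1 animal, so the p-values measure the spread between these libraries. Neuron markers were present in every library, and choroid plexus markers, which belong to the tissue of the ventricles, varied within both groups, with summed levels of 25.7, 855 and 537 CPM (counts scaled to library size) in PS_high and 15.1, 462 and 221 CPM in control. Deposited linear counts came to 63466209, 53344395 and 61417412 in PS_high 1 to 3 and 65219552, 61842978 and 66004386 in control 1 to 3, and back-splice reads to between 15658 and 19880 in PS_high and between 17554 and 19957 in control. PS_high 1 stood apart from the other libraries on the first principal component of 2000 genes (26.8% of the variance), at -57.0, where the other 5 lay between -14.4 and 28.3. In bulk tissue, fewer cells of a type and less RNA per cell cannot be told apart.

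App encodes a membrane protein of neurons and glia, and Aplp1 and Aplp2 encode its relatives, which lack the amyloid-beta sequence. Beta-secretase (Bace1) followed by gamma-secretase releases amyloid-beta from App, while alpha-secretase cleavage, for which Adam10 is the main neuronal enzyme, cuts inside that sequence. Gamma-secretase consists of a presenilin (such as Psen2), nicastrin (Ncstn), an Aph1 subunit and Psenen, and the protease insulysin (Ide) degrades amyloid-beta and insulin.

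Promoters of 8 of the 9 genes were found in RefSeq tables of GRCm38.p6 (Bace1 was not). Those of App, Aplp1 and Adam10 are shown because isoforms of these genes traded reads between libraries, and because the competing isoforms of Aplp1 share a start while those of Adam10 do not. Each run is the 250 bases before the gene start, 5′ to 3′ on the strand of the gene, and capitals mark GGGCGG or its reverse complement CCGCCC, the GC box.
App, chr16:85173708-85173957, minus strand: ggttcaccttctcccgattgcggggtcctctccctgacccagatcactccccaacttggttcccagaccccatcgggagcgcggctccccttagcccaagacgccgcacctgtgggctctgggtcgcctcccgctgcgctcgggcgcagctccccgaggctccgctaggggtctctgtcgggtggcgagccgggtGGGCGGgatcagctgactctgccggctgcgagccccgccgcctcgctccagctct
Aplp1, chr7:30445583-30445832, minus strand: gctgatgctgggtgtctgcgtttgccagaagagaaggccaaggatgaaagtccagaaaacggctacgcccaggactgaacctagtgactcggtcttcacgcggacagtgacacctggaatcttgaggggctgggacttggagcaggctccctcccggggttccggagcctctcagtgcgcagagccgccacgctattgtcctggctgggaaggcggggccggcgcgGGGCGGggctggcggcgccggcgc
Adam10, chr9:70678732-70678981, plus strand: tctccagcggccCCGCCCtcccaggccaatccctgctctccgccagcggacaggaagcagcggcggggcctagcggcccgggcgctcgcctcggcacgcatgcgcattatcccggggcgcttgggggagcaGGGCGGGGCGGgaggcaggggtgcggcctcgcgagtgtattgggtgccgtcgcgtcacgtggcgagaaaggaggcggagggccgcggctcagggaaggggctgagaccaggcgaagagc
The App and Aplp1 windows held 1 GC box match each and the Adam10 window 3, of which 2 adjoin. On either strand, 32.7% of 32851 RefSeq promoter windows of the same length held this motif. All 3 windows were rich in G and C, at 70.8% in App, 66.0% in Aplp1 and 74.0% in Adam10 against a median of 52.4% over all windows. The letters TATAAA were found in none of the 3 on either strand, and 12.4% of all windows held them. Isoforms starting within 500 bases of the RefSeq start carried 67.3, 60.9 and 61.5% of App counts in PS_high and 54.6, 61.3 and 67.7% in control. For Aplp1 that share was 98.5 to 99.3% in PS_high and 99.2 to 99.3% in control. No Ide isoform started within 500 bases of its RefSeq start. In the windows not shown, G and C made up 66.4% in Aplp2, 63.2% in Ncstn, 62.8 and 44.8% in Psen2, 57.2% in Aph1a and 42.8% in Ide.

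None of the 9 genes passed the threshold between PS_high and control mice, and App was the single gene of the 9 whose libraries did not overlap between the groups. Across all genes, 0.0247% (5 of 20272) were called by edgeR's quasi-likelihood test at a Benjamini-Hochberg adjusted p of 0.05, and 7.09% had groups that did not overlap, so 1 of 9 is near that background. None of the 9 had an unadjusted p below 0.05, against 2.73% of all genes, and DESeq2 and limma called none either. The fitted log2 fold change (PS_high over control) was above 0 for 6 of the 9 and below 0 for 3, with a median of 0.05 beside -0.01 over all genes tested. Of all genes tested, 9835 of 20272 were above 0.

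**Figure D1:**
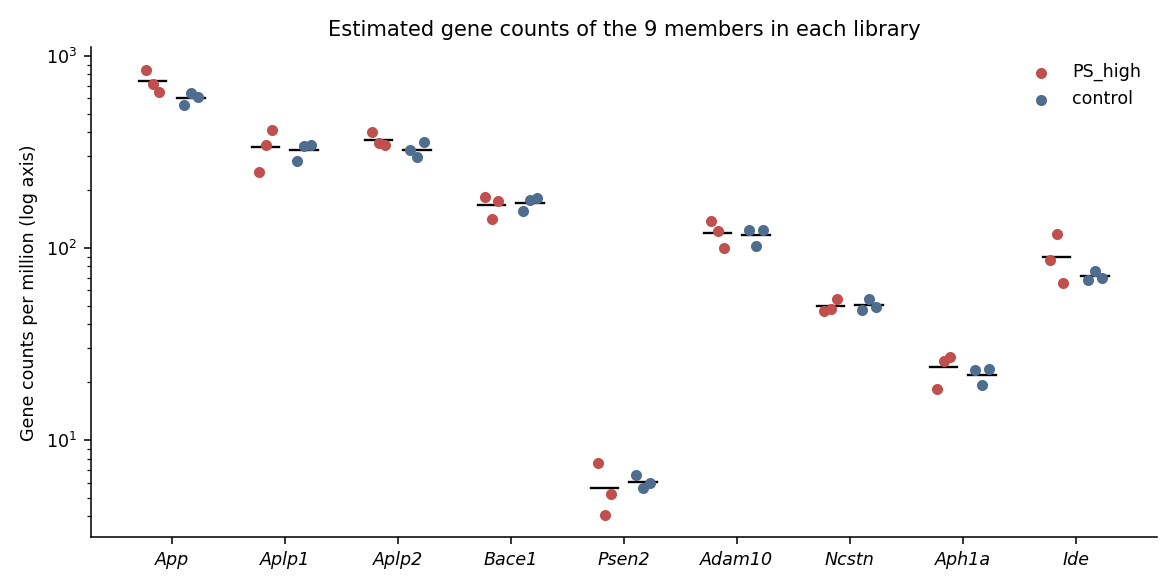
Each point is 1 library, with the gene's CPM (log axis) for the 9 genes, PS_high left of control, and bars mark the mean of 3 libraries. The 3 App points of PS_high, 647 to 847 CPM, lie above the 3 of control, 555 to 641 CPM, and the points of the other 8 genes overlap.

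On the length-corrected scale the precursors stood far above the enzymes. The mean over the 6 libraries was 115 FPKM for Aplp2, 93.1 FPKM for Aplp1 and 83.1 FPKM for App, and these 3 overlapped in their libraries. FPKM was summed over a gene's isoforms, so it depends on the lengths of the models that took the counts. By mean CPM App was instead the highest of the 3, at 736 in PS_high and 603 in control. Aplp2 had 366 and 325 CPM. Adam10 followed at 20.1 FPKM, Bace1 at 16.3 FPKM, Ncstn at 13.5 FPKM and Ide at 12.0 FPKM, each overlapping its neighbour in this order. Aph1a had 7.48 FPKM, and its highest library, at 9.88 FPKM, lay just below the lowest of Ide, at 9.89 FPKM. Psen2 was lowest at 2.42 FPKM, and its highest library (2.9 FPKM) lay below the lowest of Aph1a (4.9 FPKM).

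App, the amyloid precursor itself, had 847, 714 and 647 CPM in PS_high libraries 1 to 3, against 555, 641 and 613 CPM in control libraries 1 to 3. All PS_high libraries were above all control libraries, the narrowest gap lying between PS_high 3 and control 2. The means were 736 ± 102 CPM in PS_high and 603 ± 43.9 CPM in control (SD, n = 3 each), a log2 fold change of 0.29 (SE 0.15, 95% interval -0.06 to 0.63). This missed the threshold, with an edgeR adjusted p of 1, and without PS_high 1 the log2 fold change was 0.18. On the FPKM scale the groups overlapped, with 120, 87.7 and 73.2 FPKM in PS_high and 54.6, 84.1 and 79.8 FPKM in control. Summed levels of 4 neuron markers, 3623, 3164 and 3425 CPM in PS_high and 2384, 2019 and 2413 CPM in control, also did not overlap. Snap25 carried this difference, and the other 3 markers, each of which overlapped, summed to 2364, 1993 and 1752 CPM in PS_high and 1787, 1621 and 1916 CPM in control, which overlapped too. None of the 4 was called, and their part in the App values was not tested.

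Aplp1, an App relative found mainly in neurons, had 248, 343 and 411 CPM in PS_high and 285, 338 and 343 CPM in control. The PS_high libraries lay on both sides of the control libraries, and the log2 fold change was 0.05 (SE 0.20, 95% interval -0.42 to 0.53). Aplp2, the broadly expressed relative, had 401, 354 and 345 CPM in PS_high and 323, 296 and 356 CPM in control. Its means were 366 ± 30.3 CPM in PS_high and 325 ± 29.9 CPM in control (SD, n = 3 each), and its log2 fold change of 0.17 (SE 0.14) was within the spread, with an edgeR adjusted p of 1.

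The beta-secretase Bace1 had 185, 142 and 175 CPM in PS_high and 155, 177 and 183 CPM in control, with overlapping groups and a log2 fold change of -0.04 (SE 0.15, 95% interval -0.39 to 0.32). The alpha-secretase Adam10 had 138, 122 and 100 CPM in PS_high and 123, 102 and 125 CPM in control. Its groups overlapped in full, with a log2 fold change of 0.04 (SE 0.17, 95% interval -0.35 to 0.43).

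Among the gamma-secretase genes, the nicastrin gene Ncstn, which encodes the substrate-receiving subunit, was the steadiest, with 46.9, 48.1 and 54.1 CPM in PS_high and 47.6, 53.9 and 49.2 CPM in control. Its log2 fold change was -0.02 (SE 0.14, 95% interval -0.34 to 0.31). Aph1a, a scaffold subunit, had 18.5, 25.8 and 27.2 CPM in PS_high and 23.0, 19.3 and 23.3 CPM in control, and the presenilin gene Psen2 had 7.6, 4.1 and 5.2 CPM in PS_high and 6.6, 5.6 and 5.9 CPM in control. Both spread more within PS_high than within control and overlapped between the groups. The log2 fold change of Aph1a was 0.12 (SE 0.20), or 0.019 without PS_high 3 and 0.28 without PS_high 1, and that of Psen2 was -0.10 (SE 0.27), or -0.37 without PS_high 1 and 0.073 without PS_high 2.

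Ide had 86.1, 118 and 65.2 CPM in PS_high and 68.3, 76.1 and 69.5 CPM in control. PS_high 2 was high and PS_high 3 was the lowest of the 6 libraries. The means were 89.8 ± 26.5 CPM in PS_high and 71.3 ± 4.18 CPM in control (SD, n = 3 each), and the log2 fold change was 0.33 (SE 0.22, 95% interval -0.18 to 0.84), or 0.07 without PS_high 2.

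The genes whose pattern over the 6 libraries was most like that of App, by root mean square difference of centred log2 CPM, were Ufsp2 (0.069), Setd5 (0.071) and Wdr48 (0.071) of 4717 genes with at least 10 FPKM. The other 8 genes of the set were further away, from 0.132 for Aplp2 to 0.352 for Aplp1.

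Several other genes of amyloid processing were listed alongside, and none of the 31, all tested, was called. Of these, 22 had a log2 fold change above 0 and 9 below, with a median of 0.07 beside -0.01 over all genes. Over all genes tested, 9835 of 20272 were above 0. Only Apbb2 had an unadjusted p below 0.05, 1 of 31 beside 2.73% of all genes, and 4 of 31 had groups that did not overlap beside 7.09%.

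Apbb2, an adaptor of the Fe65 family that binds the App tail, had 81.8, 71.4 and 76.1 CPM in PS_high and 41.7, 61.1 and 39.0 CPM in control. All PS_high libraries lay above all control libraries, with a log2 fold change of 0.69 (SE 0.20) and an edgeR adjusted p of 1. Psenen, the smallest gamma-secretase subunit, had 8.22, 8.64 and 9.57 CPM in PS_high and 12.4, 10.4 and 11.7 CPM in control, again without overlap and lower in PS_high, with a log2 fold change of -0.38 (SE 0.19, edgeR adjusted p of 1). Adam17, a protease with alpha-secretase activity, had 17.8, 17.3 and 15.8 CPM in PS_high and 18.4, 21.7 and 19.0 CPM in control, with a log2 fold change of -0.21 (SE 0.17).

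Tmed10, a trafficking protein reported to restrain gamma-secretase, was the fourth gene without overlap, at 149, 147 and 165 CPM in PS_high and 134, 140 and 145 CPM in control, with a log2 fold change of 0.14 (SE 0.12). Among the other genes of smallest p, Adam9, another metalloprotease, had a log2 fold change of 0.46 (SE 0.24). Dab1, an adaptor of the reelin pathway that also binds App, had 0.25 (SE 0.21) on the same log2 scale. The sorting adaptor Gga3, which routes Bace1, had a log2 fold change of -0.34 (SE 0.30) and Apba1, an adaptor of the Mint family, had -0.31 (SE 0.24), and the groups of these last 4 genes overlapped.

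**Figure D2:**
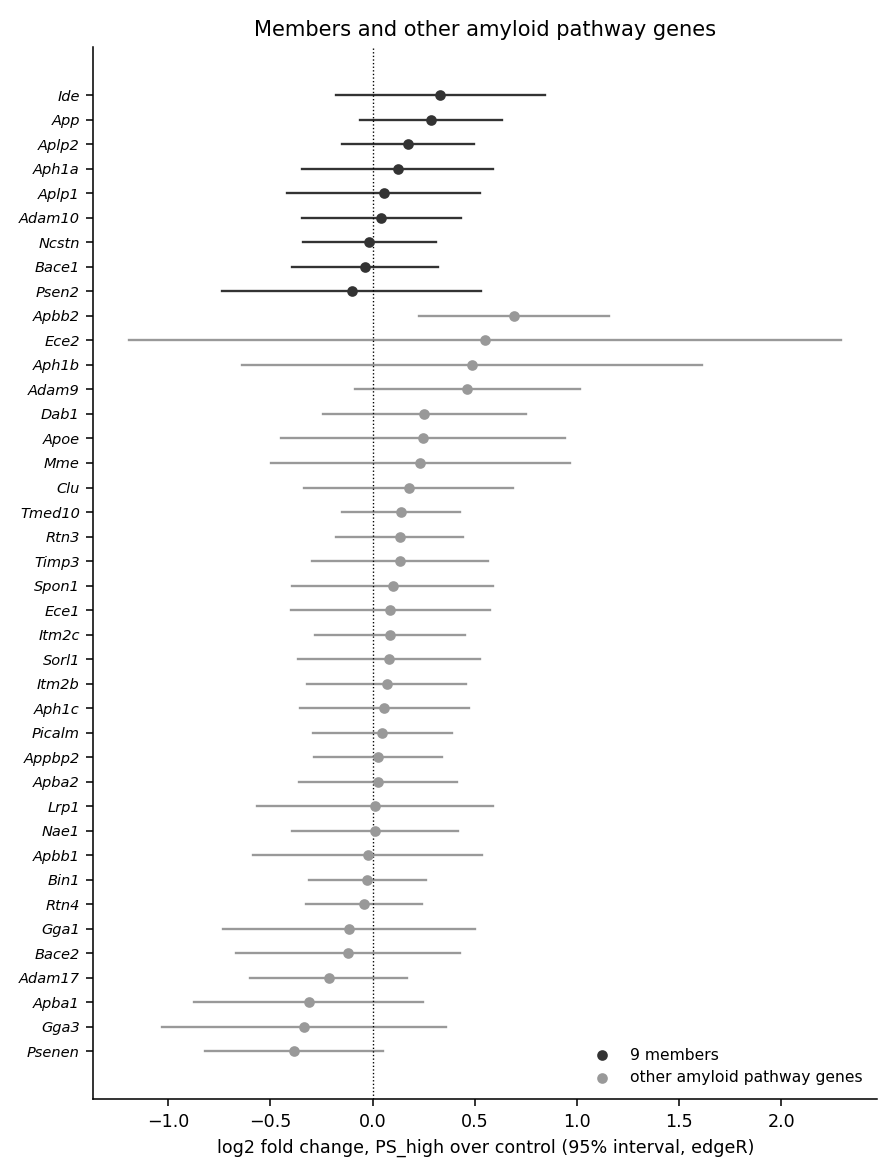
Points are log2 fold changes of PS_high over control from edgeR, with 95% intervals as lines, for the 9 genes (black) and 31 other amyloid pathway genes (grey). The interval of Apbb2, at 0.69, lies above 0, and the intervals of the 9 black genes include 0.

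The isoforms inside the genes differed more between libraries than the gene counts did. Of the 45 isoforms tested none passed the threshold of edgeR, beside 0.00593% of all isoforms, and 1 had an unadjusted p below 0.05, beside 3.49%. Limma and DESeq2 also called none. For usage, meaning an isoform against the rest of its gene (edgeR diffSpliceDGE), none of 45 passed beside 0.774% and 2 had an unadjusted p below 0.05 beside 5.72%. Of the 73 isoforms, 8 had no reads in 1 library and at least 100 in another, and for 7 of them this happened between libraries of the same group. The share held by the leading isoform of a gene ranged within PS_high by a median of 36.6 percentage points over the 9 genes and within control by 16.5 points. Over 12887 genes with several isoforms those medians were 18.8 and 16.2 points. The deposited isoform counts are estimates. How reads that fit several isoforms were assigned, and the part of that assignment in these swings, was not tested.

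App transcripts differ mainly by skipping of alternative exons, among them one that encodes a Kunitz protease inhibitor domain, and forms without it are known to prevail in neurons. The 16-exon coding isoform ENSMUST00000005406 had 22417, 609 and 685 counts in PS_high and 556, 269 and 837 counts in control. PS_high 1 stood apart from the 5 other libraries, in which this isoform held 0.84 to 2.49% of App counts, against 56.7% in PS_high 1. Its log2 fold change was 3.93 (SE 1.66, edgeR adjusted p of 1), or 0.42 without PS_high 1, and its usage had an unadjusted p of 0.00804 and an adjusted p of 0.285.

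The next 3 coding isoforms of App by counts were low in the same library. The 16-exon ENSMUST00000227021 had 0, 3035 and 4439 counts in PS_high and 3825, 2962 and 4359 counts in control, and the 17-exon ENSMUST00000226232 had 0, 5714 and 2113 counts in PS_high and 828, 8184 and 6342 counts in control. The 18-exon ENSMUST00000227723 had 3830, 9114 and 12497 counts in PS_high and 9517, 8108 and 11116 counts in control. Both 16-exon isoforms together made up 84.9, 19.7 and 26.0% of coding App counts in PS_high and 29.7, 16.5 and 22.9% in control, so that PS_high 1 was high and the other libraries of both groups overlapped.

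The 17-exon ENSMUST00000226801 had 148, 1 and 1 counts in PS_high and 1, 1 and 1 counts in control. Counts of the 5 coding isoforms with reads, all of which start near the promoter shown above, were 26395, 18473 and 19735 in PS_high and 14727, 19524 and 22655 in control, which overlapped. The assembled 6-exon isoform MSTRG.15856.13, a long model of 15265 bases that begins far downstream of that promoter, was steady at 9440 to 11133 counts in PS_high and 8918 to 10477 counts in control. Its share was 28.1, 30.9 and 30.8% in PS_high and 37.3, 32.6 and 26.5% in control.

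One retained-intron isoform of App, ENSMUST00000228509, had 784, 514 and 640 counts in PS_high and 412, 379 and 195 counts in control. Every PS_high library was above every control library, with a log2 fold change of 1.10 (SE 0.40), an unadjusted p of 0.0370 and an edgeR adjusted p of 1. It was 1 of 2 among the 45 tested isoforms whose CPM did not overlap, beside 8.39% of all isoforms, and it was named after its values were seen.

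In Aplp1 a pair of isoforms exchanged nearly all reads. The 17-exon coding isoform ENSMUST00000006828 had 1485, 426 and 20420 counts in PS_high and 13881, 707 and 11678 counts in control. The 16-exon ENSMUST00000208792, annotated as a retained intron, had 10017, 14059 and 0 counts in PS_high and 0, 16116 and 7006 counts in control. High and low libraries occurred in both groups, and together the pair held 98.5 to 99.3% of the gene's counts in every library. Their 5′ ends lay 47 and 93 bases downstream of the RefSeq start, next to the single Aplp1 promoter shown.

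In Aplp2 the leading isoform was a short retained-intron model of 4 exons, ENSMUST00000216921, and it was among the steadiest. It held 50.5, 51.8 and 53.1% of the gene's counts in PS_high and 53.3, 53.2 and 53.9% in control. The shares of PS_high lay just below those of control, and its usage had an adjusted p of 1. It was 1 of 2 among the 45 tested member isoforms whose shares did not overlap, beside 9.41% of all isoforms tested. The assembled 9-exon MSTRG.40017.8 held 24.5, 24.6 and 11.3% in PS_high and 8.74, 21.1 and 24.4% in control, and the 14-exon coding ENSMUST00000213254 was high where it was low, at 1.0, 1.35 and 21.3% in PS_high and 20.8, 1.51 and 0.81% in control. The assembled MSTRG.40017.9, held 8.46 to 11.6% in PS_high and 10.7 to 12.1% in control.

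**Figure D3:**
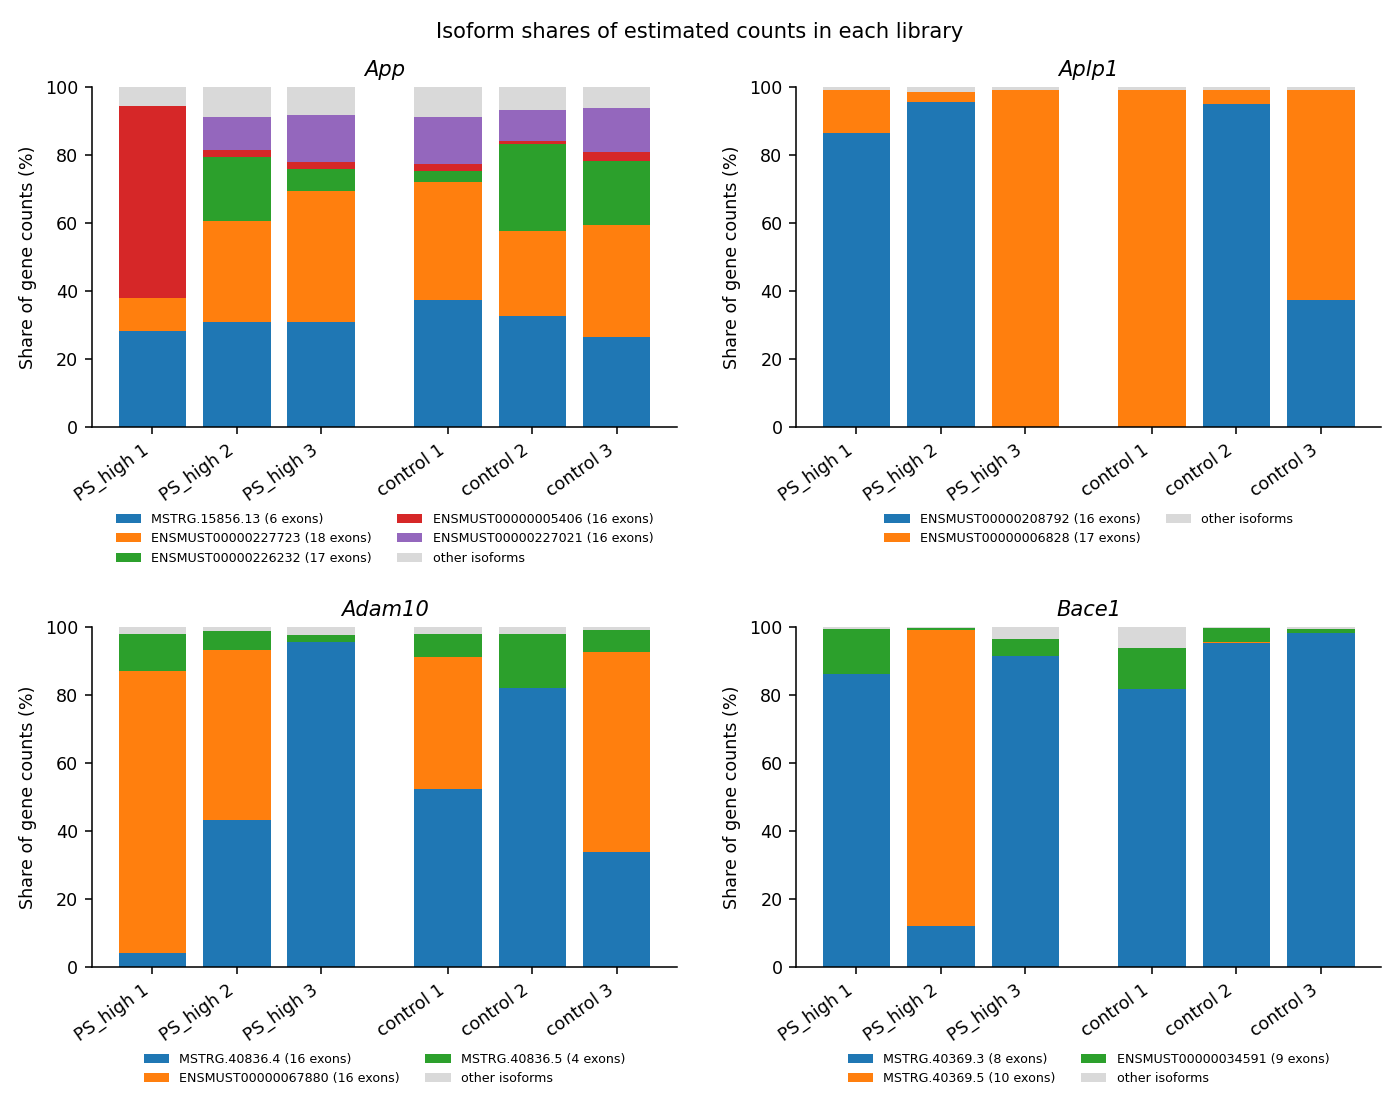
Stacked bars give the share of each gene's estimated counts (%) held by its isoforms in each library, PS_high left of control, for App, Aplp1, Adam10 and Bace1. The large changes of colour are between libraries of the same group, such as 86.4, 95.6 and 0% for the Aplp1 isoform ENSMUST00000208792 in PS_high and 0, 95 and 37.2% in control.

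Bace1 reads lay mainly on the assembled 8-exon isoform MSTRG.40369.3, with 7444, 733 and 8036 counts in PS_high and 6224, 8478 and 9854 counts in control. In PS_high 2 a 10-exon assembled isoform, MSTRG.40369.5, took its place with 5300 counts, against 5 and 5 counts in PS_high 1 and 3 and 6, 13 and 16 counts in control. The sum of both was 7449, 6033 and 8041 counts in PS_high and 6230, 8491 and 9870 counts in control, which overlapped. The log2 fold change of MSTRG.40369.5 was 7.51 (SE 3.20, edgeR adjusted p of 1) and its usage had an unadjusted p of 0.00654 and an adjusted p of 0.254. Without PS_high 2 the log2 fold change was -1.12, so this 1 library decided its direction. The annotated coding isoform ENSMUST00000034591 held 0.49 to 13.2% of the gene's counts in PS_high and 1.02 to 12.0% in control.

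Adam10 was divided between the annotated 16-exon coding isoform ENSMUST00000067880 and the assembled 16-exon MSTRG.40836.4. The annotated isoform starts 15 bases from the RefSeq start, behind the Adam10 promoter shown, and had 5360, 2619 and 0 counts in PS_high and 2352, 0 and 4036 counts in control. The assembled isoform starts 18575 bases downstream and had 270, 2249 and 4786 counts in PS_high and 3167, 4195 and 2309 counts in control. Each group thus held a library without reads on the annotated isoform, while the sum of both was 5630, 4868 and 4786 counts in PS_high and 5519, 4195 and 6345 counts in control. Isoforms starting within 500 bases of the RefSeq start held 83.0, 50.2 and 0% of Adam10 counts in PS_high and 38.8, 0 and 59.0% in control.

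In the gamma-secretase genes, the coding isoform ENSMUST00000003550 of Ncstn held 45.2, 59.2 and 93.7% in PS_high and 85.4, 68.4 and 86.8% in control. PS_high 1 had 46.6% on the assembled 15-exon MSTRG.2529.4, which held 7.77 and 0% in PS_high 2 and 3 and 8.29, 0 and 7.14% in control. The 2 assembled isoforms of Ncstn together held 46.8, 33.8 and 0.44% in PS_high and 8.67, 1.70 and 7.14% in control, so PS_high 2 was high as well. An isoform annotated for nonsense-mediated decay, ENSMUST00000146137, had 20.6% of Ncstn counts in control 2 and no reads in the 5 other libraries. The 7-exon coding isoform ENSMUST00000056710 of Aph1a held 28.1, 51.6 and 64.7% in PS_high and 38.2, 53.4 and 51.5% in control, and these overlapped. The 6-exon coding isoform ENSMUST00000015894 held 48.4, 12.8 and 17.6% in PS_high and 29.6, 16.2 and 14.1% in control, and the retained-intron ENSMUST00000197232 held 17.6 to 35.5% in PS_high and 30.3 to 34.4% in control.

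Psen2 had few reads, so its shares rest on small counts. Its leading model was the retained-intron ENSMUST00000149590, with 96, 60 and 92 counts in PS_high and 114, 131 and 88 counts in control. The 11-exon coding isoform ENSMUST00000111106 had 205, 42 and 49 counts in PS_high and 53, 38 and 51 counts in control. By counts PS_high 1 was again the high library and the groups overlapped. As a share of Psen2 counts, every PS_high library lay above every control library. This isoform fell below the FPKM filter and was not tested. It was 1 of 2 among the 23 isoforms named by share whose shares did not overlap, beside 9.41% of all isoforms tested. ENSMUST00000130711, a processed transcript, had 161 counts in control 3, between 7 and 52 in PS_high and 4 and 35 in the other control libraries. The retained-intron ENSMUST00000193897 had 12 to 62 counts in PS_high and 17 to 66 counts in control.

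Ide was the simplest gene, with the 24-exon coding isoform ENSMUST00000131070 at 96.2, 93.3 and 93.0% in PS_high and 89.0, 93.5 and 92.6% in control, which overlapped. Genes on the opposite strand overlap App, Bace1, Psen2, Ncstn and Aph1a, and the pseudogene Rpl10-ps6 overlaps Ide on its own strand. The kit marks strand, but no source used here says whether counting used it, so reads of the overlapping genes may be mixed in.

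Circular RNAs of these genes were sparse. The 30 circRNAs had 66 back-splice reads in PS_high and 76 in control, 19 of the 30 (63.3%) were seen in 1 library, beside 66.1% of all circRNAs, and 8 had reads in at least 3 libraries and were tested. None of the 8 was called by edgeR, beside 0.0305% of all tested circRNAs, and 1 had an unadjusted p below 0.05, beside 4.95%. DESeq2 also called none. Adam10 gave 15 circles, with 18, 10 and 12 reads in PS_high and 14, 10 and 22 reads in control, and Ide gave 11, with 8, 7 and 8 reads in PS_high and 7, 2 and 7 reads in control. Both overlapped between the groups. App gave 3 circles, with 0, 0 and 3 reads in PS_high and 4, 2 and 5 reads in control, Aplp2 gave 1, and the other 5 genes gave none.

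**Figure D4:**
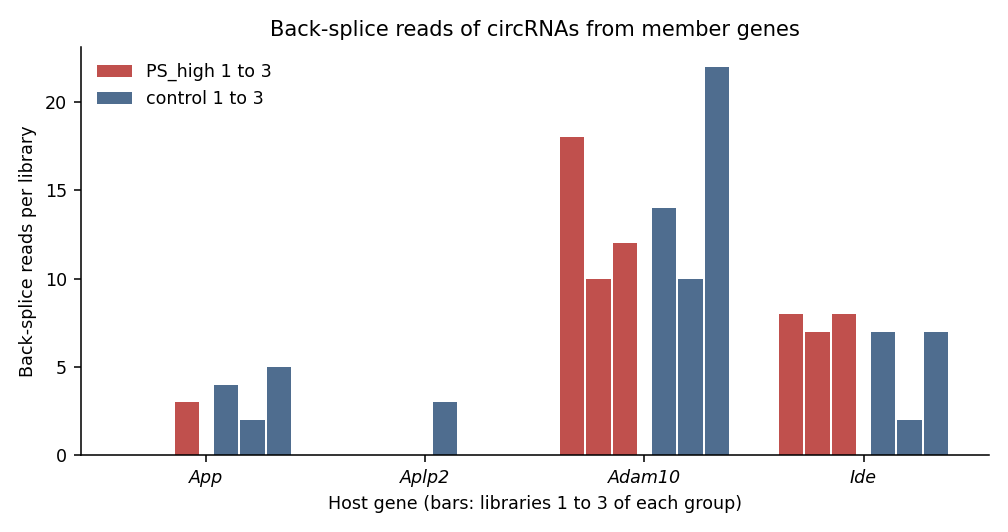
Bars give the back-splice reads of all circRNAs of a host gene in each library, PS_high left of control, for the 4 genes that had any. Adam10 has the most reads, 10 to 18 per library in PS_high and 10 to 22 in control, and App has 0, 0 and 3 in PS_high and 4, 2 and 5 in control.

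The App circle mmu_circ_0000705, of 5 exons on chromosome 16 from 85013627 to 85030365 in the table's coordinates, had 0 reads in each PS_high library and 4, 2 and 2 reads in control. Against a floor of 3 reads set for the PS_high group, the pooled control level was 2.32-fold higher. This ratio takes the 8 control reads as exact and leaves out the spread between libraries. The circle's unadjusted p was 0.0285 and its edgeR adjusted p was 0.826. It was 1 of 2 among the 8 tested circles whose groups did not overlap, beside 11% of all tested circRNAs. At this depth its absence from PS_high was not distinguishable from a low level. Another App circle, circRNA10166 of 7 exons, had 0, 0 and 3 reads in PS_high and 0, 0 and 2 reads in control.

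The most abundant circle was mmu_circ_0015847 of Adam10, which spans 3 exons and had 4, 2 and 5 reads in PS_high and 2, 2 and 5 reads in control, the same range in both groups. Its 5′ junction, at position 70703287 of chromosome 9, was shared by several larger Adam10 circles. Of these, circRNA3717 had 8, 0 and 2 reads in PS_high and 3, 0 and 4 reads in control. The circle mmu_circ_0015848 had 0, 0 and 1 reads in PS_high and 2, 2 and 2 reads in control, which was the other tested circle without overlap. Joined with circRNA14006, whose junction lies 1 base away, it had 0, 4 and 1 reads in PS_high and 2, 2 and 2 reads in control, and the groups overlapped. Fewer reads still fell on mmu_circ_0015849, with 1, 0 and 0 reads in PS_high and 2, 1 and 1 reads in control.

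Elsewhere in Adam10, circRNA3721 had 0, 2 and 2 reads in PS_high and 3, 2 and 1 reads in control, and circRNA10249 had 8 reads, all in control 3. The Ide circle circRNA4885, of 13 exons, had 2, 2 and 5 reads in PS_high and 3, 2 and 0 reads in control, and mmu_circ_0007746 had 0, 2 and 1 reads in PS_high and 2, 0 and 2 reads in control. Among the 12 circles with most reads, a pair was seen in PS_high alone. These were circRNA12482 of Ide with 4 reads in PS_high 1 and circRNA14006 of Adam10 with 4 reads in PS_high 2. Both have a junction 1 base away from that of another circle of the same gene, as do 6 of the 30 circRNAs (20%), beside 13.8% of all circRNAs. Joined with its partner mmu_circ_0007746, circRNA12482 had 4, 2 and 1 reads in PS_high and 2, 0 and 2 reads in control, and the groups overlapped. Adding such partners together left 0 of the tested member circles called.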

How the data were processed

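RNA of 6 mouse prefrontal cortex libraries, 3 PS_high and 3 control, was depleted of ribosomal RNA and made into stranded libraries, per the labels' protocols. HISAT2, StringTie and TopHat are named in the submitters' processing notes, without versions or roles. The authors deposited, for each linear isoform, FPKM and a whole-number estimated count, with most unread isoforms listed at an FPKM of 0.0001. For each circRNA the deposited values were a count of back-splice reads and a signal, SRPBM, equal to that count divided by 1 total per library. No source used here names the genome build. Positions matched GRCm38.p6 for 792 of 917 snRNA genes, and coordinates are those of the tables.

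Gene counts were summed over isoforms with class codes =, j, c, o and e. Whole tables were fitted with edgeR 4.0.16 in R 4.3.3 (quasi-likelihood test, two-sided, TMM factors, group only), with Benjamini-Hochberg adjustment over all features and a threshold of 0.05. Genes and isoforms needed a mean of 0.5 FPKM, and circRNAs reads in 3 libraries, with the totals behind SRPBM as library sizes. CPM values are estimated counts scaled to the TMM-adjusted library size. DESeq2 1.42.0 and limma 3.58.1 were alternatives, as were leaving out each library, other filters, other sums over isoforms and the replicate number as a block. The fits were tested on simulated data, with counts drawn independently for each feature. That simulation held no exchange of reads between isoforms of a gene. Each SE of a log2 fold change was derived from that fold change and its quasi-likelihood test statistic. The intervals built on it rest on the spread between libraries as fitted. The floor of 3 reads covers counting error of the PS_high reads only.

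The 9 genes, the pathway list and the marker lists were chosen with earlier results of these data known. All 9 genes are named. The isoforms named hold at least 10% of their gene's counts, at most 4 per gene, together with any past a threshold, and the circRNAs named are the 12 with most reads. Of the pathway list the 4 genes of smallest p in each direction are named, and 1 gene of that list is not reported here. Isoforms outside these rules (ENSMUST00000228509, ENSMUST00000213254, ENSMUST00000034591, ENSMUST00000227021, ENSMUST00000226801, ENSMUST00000146137) were chosen after their values were seen.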

Additional observations from a re-analysis of the deposited data

How the results depend on the processing

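The number of called members was 0 in every alternative run: 15 for genes, 12 for isoforms, 10 for isoform usage and 12 for circRNAs. Over all features the calls moved between alternatives, from 0 to 47 genes (5 in the fit reported), 0 to 1211 isoforms (3), 128 to 616 isoforms by usage (312) and 0 to 4 circRNAs (1), the highest isoform count coming from DESeq2. App kept a positive log2 fold change in all 15 alternatives, from 0.18 to 0.37, as did Aplp2, Aph1a, Ide, Apbb2 and Tmed10, and Psenen and Adam17 stayed negative. Other fold changes, none of them called, turned round in some settings, and the cause was not tested. With limma on log2(FPKM + 0.1) and log2(FPKM + 1), Adam10 was at -0.0748 and -0.0702, Bace1 at 0.0580 and 0.0549, and Ncstn at 0.00518 and 0.00458. With the isoform of highest mean only, Aplp1 was at -0.15, Adam10 at -0.29 and Adam9 at -0.17. With annotated isoforms only, Bace1 was at 0.10, Adam9 at -0.15, Apba1 at 0.27 and Dab1 at -0.36, and with all class codes Psen2 was at 0.0136. Leaving out each library in turn gave -0.122 to 0.235 for Aplp1, -0.106 to 0.0596 for Bace1, -0.375 to 0.0731 for Psen2, -0.0634 to 0.158 for Adam10, -0.0816 to 0.0363 for Ncstn, -0.550 to 0.0267 for Gga3 and -1.12 to 8.10 for MSTRG.40369.5 (usage -1.18 to 8.20). The labels number the libraries 1 to 3 in both groups. Deviations of same-numbered libraries correlated over genes at 0.155, 0.089 and 0.060, and the other pairs lay between -0.0996 and 0.0248. Each PS_high library thus correlated best with its own number. Whether libraries of the same number share more than that number was not tested. With the replicate number as a block, 0 members were called, with App at 0.28. With 142 back-splice reads over the 6 libraries, depth limits what the circRNA tests can detect.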
